A study of Mus musculus with 6 samples.

Results

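Kdm6a and 4 genes of the Kmt2 family, Kmt2a, Kmt2c, Kmt2d and Kmt2e, were followed in activated CD4+ T cells whose Kdm6a had been deleted. They are 5 of the 4162 genes in the deposited count table, chosen by symbol as the gene of the UTX demethylase and the mixed lineage leukaemia (MLL) genes that have a row in it. UTX TCD mice, a C57BL/6 (B6) line that lacks UTX in its T cells, were set against B6 WT mice, with 3 mice of each genotype and 1 library for each mouse. The sources used here do not give what drives the deletion, which exons were removed or the age of the mice. Naive CD4+ T cells were isolated magnetically from spleens and, in both genotypes, activated over 48 h by anti-CD3 on the plate and dissolved anti-CD28, which engage the T cell receptor and its costimulator, so that no resting sample stands beside them. Column totals over the listed genes ran from 8363326 to 10288306 counts.

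The 5 genes belong to the machinery that marks active chromatin. Kdm6a encodes UTX, which removes methyl groups from lysine 27 of histone H3 (H3K27), the mark that the Polycomb complex PRC2 writes. UTX is also a subunit of the COMPASS-type complexes built on MLL3, the product of Kmt2c, and MLL4, the product of Kmt2d, which put a single methyl group on lysine 4 of histone H3 (H3K4) at enhancers. Kmt2a encodes MLL1, which works with menin at promoters. Kmt2e encodes MLL5, which carries a SET domain and a finger that reads methylated H3K4. It shares the family name but is not known as the enzyme of a COMPASS complex. In T cells these proteins are studied for their part in differentiation and memory.

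The genes lie on 4 chromosomes of GRCm38 (mm10, GENCODE M21 gene models). Kdm6a is at chrX:18162575-18279936 on the plus strand and its longest coding transcript has 29 exons. Kmt2c is at chr5:25271798-25498783 and Kmt2e at chr5:23434441-23504235, on opposite strands. Kmt2a is at chr9:44803355-44881296 and Kmt2d at chr15:98831669-98871204, both on the minus strand. Promoter sequences were available for 4 of the 5 genes, and the 250 bases before the start are shown as a description. They are RefSeq sequences of GRCm38.p6, and capitals mark ACGTG on either strand, the core of the hypoxia response element, which the series' interest in hypoxia sensing makes relevant.
Kdm6a (chrX:18162325-18162574, plus strand): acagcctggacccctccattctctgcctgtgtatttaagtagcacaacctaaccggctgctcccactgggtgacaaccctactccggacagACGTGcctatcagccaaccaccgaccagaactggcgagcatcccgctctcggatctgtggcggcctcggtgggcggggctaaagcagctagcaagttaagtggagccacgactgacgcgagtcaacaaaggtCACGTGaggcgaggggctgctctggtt
Kmt2a (chr9:44881290-44881539, minus strand): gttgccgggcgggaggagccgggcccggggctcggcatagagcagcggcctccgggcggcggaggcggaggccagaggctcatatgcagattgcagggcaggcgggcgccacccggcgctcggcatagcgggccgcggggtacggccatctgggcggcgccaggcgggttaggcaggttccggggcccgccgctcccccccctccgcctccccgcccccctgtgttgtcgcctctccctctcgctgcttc
Kmt2c (chr5:25498784-25499033, minus strand): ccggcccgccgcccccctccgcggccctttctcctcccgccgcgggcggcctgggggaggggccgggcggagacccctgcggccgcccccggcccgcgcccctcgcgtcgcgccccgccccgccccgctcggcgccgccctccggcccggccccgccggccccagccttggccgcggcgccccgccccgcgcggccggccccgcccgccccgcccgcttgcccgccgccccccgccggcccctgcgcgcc
Kmt2d (chr15:98871206-98871455, minus strand): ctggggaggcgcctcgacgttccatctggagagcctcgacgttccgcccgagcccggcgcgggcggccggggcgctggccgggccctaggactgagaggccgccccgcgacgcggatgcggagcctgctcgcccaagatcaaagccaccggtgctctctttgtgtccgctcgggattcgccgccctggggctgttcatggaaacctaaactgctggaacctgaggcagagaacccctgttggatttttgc

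The Kdm6a promoter held ACGTG 3 times, at 159, 27 and 26 bases before the start, where the last pair are the overlapping strands of a single CACGTG (an E-box). The Kmt2a, Kmt2c and Kmt2d windows held none. Over 32841 promoters of the same length, 16.6% held ACGTG and 6.02% held CACGTG, on either strand. All 4 promoters were rich in G and C, with 91.6% for Kmt2c, 76.8% for Kmt2a, 67.6% for Kmt2d and 59.6% for Kdm6a, against a median of 52.4% over all promoters. The GC box GGGCGG occurred on either strand 12 times in the Kmt2c window, 4 times each in those of Kmt2a and Kmt2d and 1 time in that of Kdm6a, and 32.8% of all promoters held it. The ETS site CCGGAAG occurred in none of the 4, and in 6.91% of all promoters. These matches describe letters in a window and not binding, and whether they bear on the fold changes was not tested.

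The deposited table held only part of the transcriptome, and which genes it lists depends on how much they differed between genotypes. A window of 0.2 on the log2 scale held 2 of 4118 tested genes at its emptiest point, a log2 fold change of 0.075, where a full table would be densest. Having a row in the table is therefore itself tied to a difference, and the tests below are not independent evidence of one. Levels are in CPM, counts per 1000000 reads of the listed genes, after TMM scaling. Fold changes, UTX TCD over WT, come with their standard error and were tested with edgeR's quasi-likelihood F test and adjusted by Benjamini-Hochberg over all genes tested. At an adjusted p under 0.05, 68.1% of the tested genes were called, 41.1% higher and 27% lower, so that a call by itself does not set a gene apart. In bulk RNA, fewer cells of a type and less RNA per cell cannot be told apart. UTX TCD replicate 2 stood farthest from its genotype, with a root mean square distance of 0.54 in log2 CPM from the mean of the other UTX TCD libraries, against 0.38 to 0.43 for those libraries and 0.23 to 0.29 for the WT libraries. Without it the log2 fold changes described below were -0.63 for Kdm6a, 0.31 for Kmt2a, 0.52 for Kmt2c, 0.38 for Kmt2d and 0.52 for Kmt2e, and all 5 passed.

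**Figure D1:**
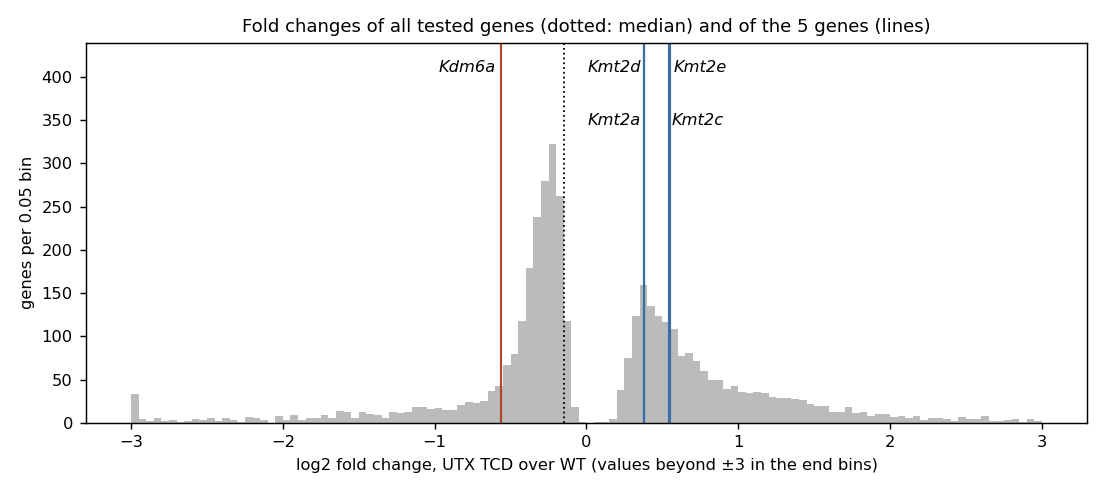
Histogram of the log2 fold changes (UTX TCD over WT) of the 4118 tested genes in bins of 0.05, with a dotted line at their median of -0.15 and a line at each of the 5 genes. The table is nearly empty around 0. Kdm6a lies in the lower arm at -0.56, and Kmt2a, Kmt2c, Kmt2d and Kmt2e lie in the upper arm between 0.38 and 0.55.

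Kdm6a, the deleted gene, was lower in UTX TCD cells but far from absent. It had 1558, 1960 and 1719 reads in UTX TCD replicates 1, 2 and 3, against 2891, 2592 and 2479 reads in WT replicates 1, 2 and 3. Scaled, this was 188, 207 and 179 CPM in UTX TCD libraries and 286, 281 and 281 CPM in WT libraries. The groups did not overlap, and every UTX TCD library kept well over 100 CPM. The log2 fold change was -0.56 ± 0.09 (95% interval -0.76 to -0.37, edgeR adjusted p = 0.0029), which leaves a mean level of 67.6% of WT. Under the other scalings and with any 1 library left out, that percentage lay between 64.2% and 71.5%. Of all tested genes, 12.3% had a more negative fold change than Kdm6a.

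The remaining Kdm6a reads were counted over the whole gene, exons outside any deleted part included. In the longest coding transcript of 5935 bases, the longest internal exon held 13.1% of the length, and the first and last exons together held 32.2%. A count per gene does not show whether the reads of a deleted exon are gone, so the fall in the count does not measure how complete the deletion was. WT libraries were almost alike for Kdm6a, with a coefficient of variation of 1.05% where counting alone gives 1.94%. Among UTX TCD libraries it was 7.52%, against a counting error of 2.40%. In genes of similar or higher level (average log2 CPM of at least 7) the median coefficient was 11.6% in UTX TCD and 3.78% in WT libraries.

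Kdm6a is an X-linked gene that escapes X inactivation, so the sex of the mice bears on its level. Xist, the RNA that coats the inactive X chromosome, was abundant in every library, at 4295, 4350 and 3896 CPM in UTX TCD replicates 1, 2 and 3 and 2868, 2793 and 2910 CPM in WT replicates 1, 2 and 3. It rose in UTX TCD cells (0.55 ± 0.08, edgeR adjusted p = 0.0029), and its groups did not overlap. The Y-linked paralog Uty and the Y-linked markers were not analysed here. Of 11 further genes known to escape inactivation, 4 were tested and none passed, where 68.1% of all tested genes passed. The 4 genes were Pbdc1 at -0.33 ± 0.13 (edgeR adjusted p = 0.056), the helicase gene Ddx3x at -0.33 ± 0.14 (0.059), the translation factor gene Eif2s3x at -0.25 ± 0.11 (0.069) and the H3K4 demethylase gene Kdm5c at -0.15 ± 0.10 (0.18). Among these 4 genes, 3 passed as lower when UTX TCD replicate 1 was left out and 1 when UTX TCD replicate 2 was left out. Over all 117 tested genes of chromosome X, 52 were higher and 28 lower, at a median of -0.15, and 19 had a lower fold change than Kdm6a. Among all tested genes 41.1% were higher and 27% lower, also at a median of -0.15.

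**Figure D2:**
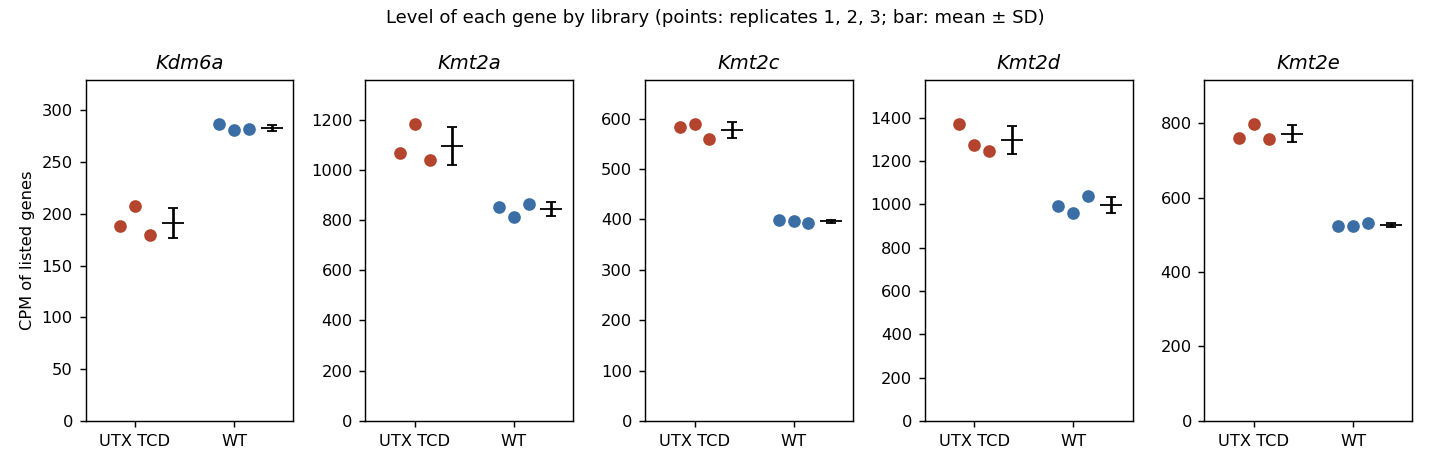
CPM of listed genes (vertical axis, from 0) for each gene in the 3 UTX TCD libraries (red) and the 3 WT libraries (blue), with points in the order of replicates 1 to 3 and a bar for the mean ± SD. Kdm6a is lower in every UTX TCD library than in any WT library, and the 4 Kmt2 genes are higher in every UTX TCD library than in any WT library.

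Kmt2c and Kmt2d, whose products form the complexes that contain UTX, were both higher in UTX TCD cells. Kmt2c had 583, 589 and 560 CPM in UTX TCD replicates 1, 2 and 3, against 399, 397 and 393 CPM in WT replicates 1, 2 and 3. Its groups were far apart and each was tight, with a coefficient of variation of 2.63% in UTX TCD and 0.842% in WT libraries. The log2 fold change of Kmt2c was 0.54 ± 0.07 (95% interval 0.37 to 0.71, edgeR adjusted p = 0.0020). Kmt2d, the most read of the 5 genes, had 1370, 1273 and 1246 CPM in UTX TCD replicates 1, 2 and 3 and 991, 962 and 1039 CPM in WT replicates 1, 2 and 3. UTX TCD replicate 1 was its highest library, and the groups did not overlap. Its log2 fold change was 0.38 ± 0.08 (0.19 to 0.56, edgeR adjusted p = 0.0080).

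Kmt2a and Kmt2e were higher as well. Kmt2a had 1068, 1182 and 1038 CPM in UTX TCD replicates 1, 2 and 3, against 851, 812 and 865 CPM in WT replicates 1, 2 and 3, a log2 fold change of 0.38 ± 0.08 (95% interval 0.19 to 0.57, edgeR adjusted p = 0.0092). Replicate 2 was the highest UTX TCD library for Kmt2a and the lowest WT library. Kmt2e had 760, 797 and 757 CPM in UTX TCD replicates 1, 2 and 3 and 522, 522 and 532 CPM in WT replicates 1, 2 and 3. It had the largest rise of the 5 genes, 0.55 ± 0.07 (0.39 to 0.72, edgeR adjusted p = 0.0019). The rises of all 4 Kmt2 genes exceeded the spread between mice, and they lay at the 61.5 to 72.5 percentile of all tested fold changes, not at an extreme. Of all tested genes, 85.8% had groups that did not overlap. Without WT replicate 2, Kmt2a (0.35, edgeR adjusted p = 0.057) and Kmt2d (0.35, 0.054) did not pass, while Kdm6a, Kmt2c and Kmt2e passed whichever library was left out. If the counting ignored strand, reads of Kmt2e where it overlaps Srpk2 or Gm25219 on the opposite strand cannot be assigned. The same holds where Kmt2a overlaps AC061963.1 and where Kmt2c overlaps Gm18343, Gm42585 and Hspe1-ps3. Kdm6a and Kmt2d have no such overlap.

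**Figure D3:**
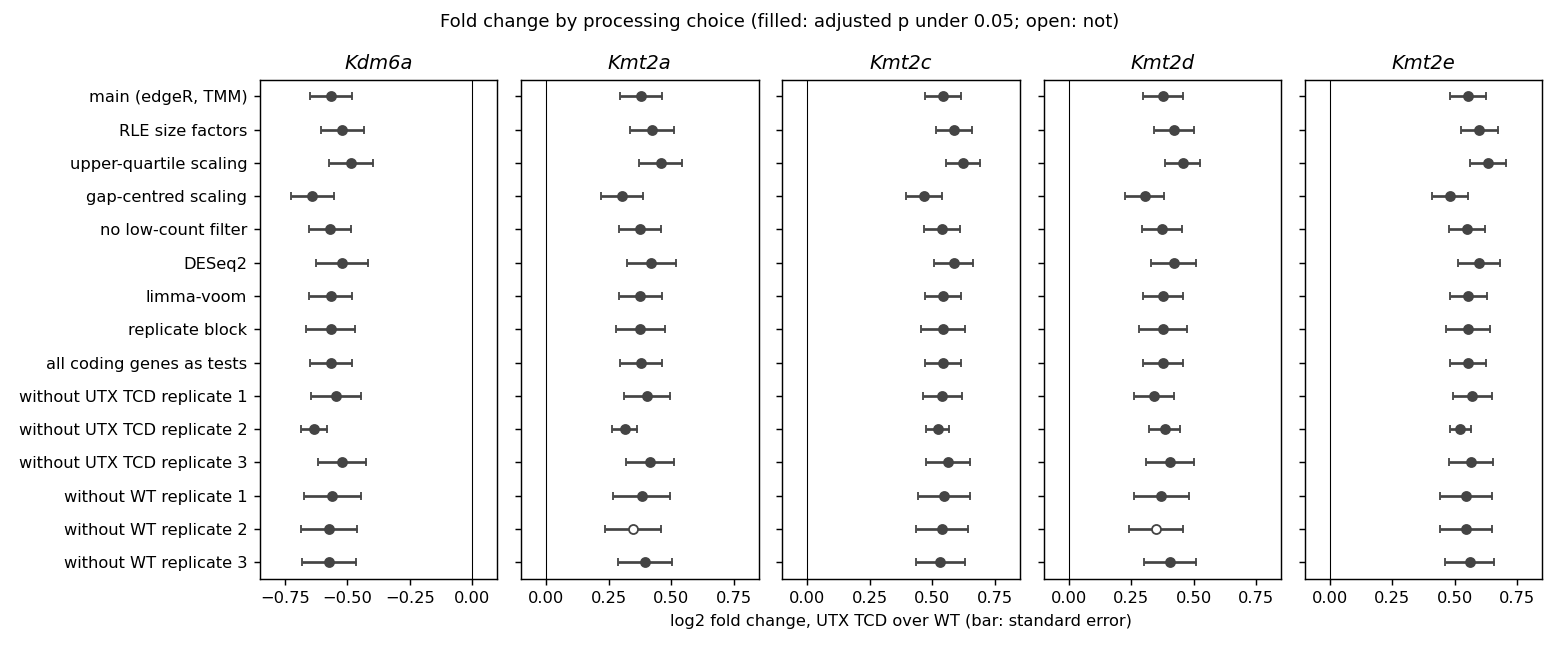
Log2 fold change of each gene (horizontal axis, UTX TCD over WT, bar for the standard error) under each way of processing the counts, with filled points at an adjusted p under 0.05 and open points above it. Every point keeps its side of 0. The open points are Kmt2a and Kmt2d without WT replicate 2, at 0.35 each.

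The scaling between libraries rests on a table of genes that differ, so the genes were also set against each other inside each library, where no scaling enters. These ratios compare genotypes for the same pair of genes and not the levels of the genes in a pair. Per 100 reads of Kmt2c and Kmt2d together, there were 9.61, 11.1 and 9.92 reads of Kdm6a in UTX TCD replicates 1, 2 and 3, against 20.6, 20.7 and 19.7 reads in WT replicates 1, 2 and 3. The log2 ratio differed by -0.99, close to a halving of the reads of Kdm6a relative to those of Kmt2c and Kmt2d. It combines the fall of Kdm6a (-0.56) with the rises of Kmt2c (0.54) and Kmt2d (0.38). The groups did not overlap. An exact two-sided permutation test gave p = 0.1, the smallest that 3 against 3 libraries allow.

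Taken singly, Kdm6a differed from each of the 4 Kmt2 genes. Per 100 reads of Kmt2a it had 17.5 ± 0.18 reads in UTX TCD and 33.6 ± 1.06 reads in WT libraries (SD, n = 3), a log2 difference of -0.94. Per 100 reads of Kmt2c it had 33.1 ± 1.79 reads in UTX TCD and 71.4 ± 0.45 reads in WT libraries, a difference of -1.11. Against Kmt2d the difference was -0.95 and against Kmt2e -1.12. All 4 differences were many times the spread between libraries of a genotype, which was 0.03 to 0.10 on the same scale. With 10 pairs of genes compared, each of these 4 had an exact permutation p of 0.1 and an adjusted p of 0.125, which the number of libraries fixes.

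The ratios among the Kmt2 genes are given as a description, since 3 against 3 libraries cannot reach a p under 0.1. Per 100 reads of Kmt2d there were 77.9, 92.8 and 83.3 reads of Kmt2a in UTX TCD replicates 1, 2 and 3, against 85.8, 84.4 and 83.3 reads in WT replicates 1, 2 and 3. The means were close, at 84.7 ± 7.54 in UTX TCD and 84.5 ± 1.27 in WT libraries (log2 difference -0.00039, exact permutation p = 1), but UTX TCD replicate 1 lay below every WT library and UTX TCD replicate 2 above every one. Per 100 reads of Kmt2e there were 74.8 ± 1.58 reads of Kmt2c in UTX TCD and 75.4 ± 1.41 reads in WT libraries (-0.01, exact permutation p = 1), and here all 6 libraries lay between 73.8 and 76.7. With any 1 library left out, these differences were within -0.068 to 0.058 for Kmt2a against Kmt2d and -0.028 to -0.00061 for Kmt2c against Kmt2e. Kmt2c was higher relative to Kmt2d, the other enzyme bound to UTX. There were 42.5, 46.2 and 44.9 reads of Kmt2c per 100 reads of Kmt2d in UTX TCD replicates 1, 2 and 3, against 40.3, 41.2 and 37.8 reads in WT replicates 1, 2 and 3. The log2 difference was 0.16, where the pooled SD between libraries of a genotype was 0.06, with no overlap (exact permutation p = 0.1, adjusted 0.125).

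The remaining ratios follow by arithmetic from those already given and add no separate evidence. The log2 difference was -0.16 for Kmt2a against Kmt2c, -0.18 for Kmt2a against Kmt2e and -0.17 for Kmt2d against Kmt2e, each without overlap and with an exact permutation p of 0.1 (adjusted 0.125). Of the reads of the 4 Kmt2 genes together, Kmt2c took 15.4% ± 0.11 in UTX TCD and 14.4% ± 0.43 in WT libraries, and Kmt2e took 20.6% ± 0.47 in UTX TCD and 19% ± 0.32 in WT libraries (SD, n = 3, exact permutation p = 0.1 each). The shares of Kmt2a and Kmt2d overlapped between genotypes. Kmt2a took 29.3% ± 1.32 in UTX TCD and 30.5% ± 0.33 in WT libraries, and Kmt2d took 34.7% ± 1.55 in UTX TCD and 36.1% ± 0.54 in WT libraries (exact permutation p = 0.3 each).

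**Figure D4:**
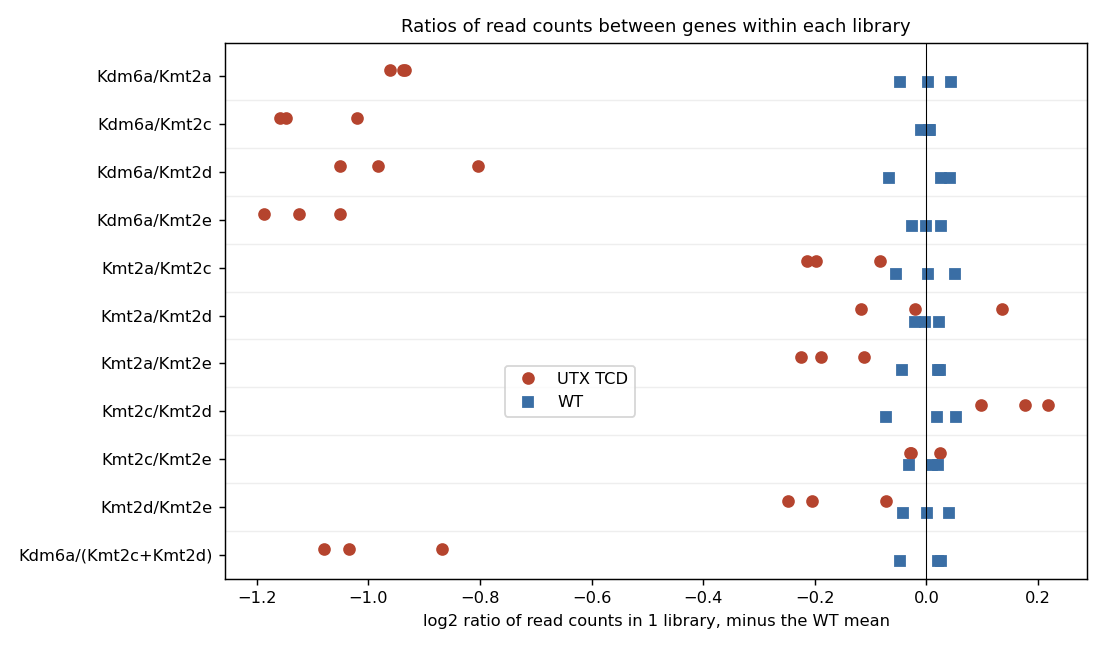
Log2 ratio of the read counts of a pair of genes within 1 library (horizontal axis), drawn relative to the mean of the WT libraries, for the 10 pairs and for Kdm6a over Kmt2c and Kmt2d together, with UTX TCD libraries as red circles above WT libraries as blue squares. Ratios with Kdm6a on top lie near -1 in UTX TCD libraries. The UTX TCD libraries of Kmt2a/Kmt2d lie on both sides of 0, those of Kmt2c/Kmt2e lie close to 0, and the other 4 ratios are shifted by 0.16 to 0.18 in size.

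Divided by the length of the gene's exons, the levels of the 5 genes could be ordered. In UTX TCD libraries Kmt2e was highest at 73.8 ± 2.13 CPM per kb, followed by Kmt2a at 65.7 ± 4.55 and Kmt2d at 65 ± 3.27, which did not differ beyond their spread, then Kmt2c at 28.4 ± 0.75 and Kdm6a at 22.8 ± 1.72 (SD, n = 3). In WT libraries Kmt2a at 50.5 ± 1.66, Kmt2e at 50.3 ± 0.55 and Kmt2d at 50 ± 1.94 CPM per kb were alike within their spread, followed by Kdm6a at 33.8 ± 0.35 and Kmt2c at 19.5 ± 0.16. Kdm6a and Kmt2c thus stood in opposite order in the 2 genotypes. With the length of the longest coding transcript in place of all exons, Kdm6a was at 32.2 and Kmt2c at 38.6 CPM per kb in UTX TCD libraries, and Kdm6a at 47.7 and Kmt2c at 26.5 in WT libraries. That exchange was the same, but Kmt2e then led in both genotypes, at 105 in UTX TCD and 71.8 in WT libraries.

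Of 10 genes fixed for the MLL3 and MLL4 complexes, the partners of UTX, 4 were tested, and only Wdr5 was not one of the 5 genes described above. Wdr5 encodes a propeller protein of the core shared by all COMPASS complexes. It had 328, 275 and 326 CPM in UTX TCD replicates 1, 2 and 3 and 379, 353 and 351 CPM in WT replicates 1, 2 and 3. The groups did not overlap, but it did not pass (-0.22 ± 0.10, edgeR adjusted p = 0.065). The list had 2 higher members, Kmt2c and Kmt2d, and 1 lower member, Kdm6a, beside 41.1% higher and 27% lower among all tested genes. Its median was 0.08 where all tested genes had -0.15, but this value lies midway between Wdr5 and Kmt2d and describes no gene of the list. Without UTX TCD replicate 1 or 2 the lower members were 2, and without WT replicate 2 there was 1 higher member. Ncoa6, Paxip1, Pagr1a, Rbbp5, Ash2l and Dpy30 were not analysed here.

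Men1 and Psip1 were higher, as Kmt2a was, and whether they moved together was not tested. Of 14 genes fixed for the other COMPASS enzymes and subunits, 4 were tested and all 4 were higher, at a median of 0.35, where 41.1% of all tested genes were higher. The 4 include Kmt2a and Kmt2e, described above, so that only Psip1 and Men1 are further genes. Psip1, which encodes the chromatin-tethering protein LEDGF, had 631, 628 and 641 CPM in UTX TCD replicates 1, 2 and 3, against 499, 521 and 500 CPM in WT replicates 1, 2 and 3 (0.32 ± 0.07, edgeR adjusted p = 0.0095). Men1, the gene of menin, had 288, 317 and 289 CPM in UTX TCD replicates 1, 2 and 3, against 242, 226 and 254 CPM in WT replicates 1, 2 and 3 (0.31 ± 0.09, edgeR adjusted p = 0.019). Neither gene overlapped between genotypes, as was so for 85.8% of all tested genes. Psip1 lay at the 57.6 percentile and Men1 at the 56.9 percentile of all tested fold changes, not at an extreme. Without WT replicate 1 or 2 the list had 2 higher members, as it did with the adjustment widened to all 21951 annotated coding genes.

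Of 16 genes fixed for H3K27 demethylation and PRC2, 6 were tested, 3 were higher and 2 lower, at a median of 0.30, beside the same 41.1% higher and 27% lower among all tested genes. Phf1, a Polycomb-like accessory subunit, had 34.3, 42 and 35.9 CPM in UTX TCD replicates 1, 2 and 3, against 20.3, 21.6 and 19.8 CPM in WT replicates 1, 2 and 3 (0.86 ± 0.15, edgeR adjusted p = 0.0043). Jarid2, a subunit that recruits PRC2, had 377 ± 21.1 CPM in UTX TCD and 273 ± 2.57 CPM in WT libraries (0.46 ± 0.08, edgeR adjusted p = 0.0043). Ezh1, the H3K27 methyltransferase that prevails in resting cells, was higher at 0.33 ± 0.11 (edgeR adjusted p = 0.028). The lower members were Kdm6a itself and, chosen after its values were seen, Eed, the subunit that binds methylated H3K27, at 337 ± 22.6 CPM in UTX TCD and 399 ± 10.5 CPM in WT libraries (-0.24 ± 0.08, edgeR adjusted p = 0.035). With UTX TCD replicate 3 or any 1 WT library left out, the list had 1 lower member. The demethylase gene Kdm6b and the methyltransferase gene Ezh2 were not analysed here.

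The list of demethylases of other histone sites had members called in both directions. Of 22 genes fixed, 11 were tested, 6 were higher and 2 lower, at a median of 0.24, where 41.1% of all tested genes were higher and 27% lower at a median of -0.15. Kdm4b, an H3K9 demethylase gene, and Jmjd1c, of the family of H3K9 demethylases with Kdm3a, rose by 0.38 ± 0.09 and 0.36 ± 0.09 on the log2 scale (edgeR adjusted p = 0.012 and 0.013). Kdm4d, a relative of Kdm4b, was at the edge of detection with 2.04 ± 1.01 CPM in UTX TCD and 0.46 ± 0.12 CPM in WT libraries (2.11 ± 0.54, edgeR adjusted p = 0.015). The lower members were Riox2, a JmjC oxygenase gene, and, chosen after its values were seen, Jmjd6. Riox2 changed by -0.37 ± 0.09 (edgeR adjusted p = 0.012) and Jmjd6 by -0.28 ± 0.10 (edgeR adjusted p = 0.035). The 3 members not called, named after their values were seen, all lay below 0. They were Kdm8 at -0.35 ± 0.15, Kdm2b at -0.17 ± 0.07 and Kdm5c at -0.15 ± 0.10 (edgeR adjusted p = 0.063, 0.068 and 0.18). These counts were the least stable: 0 members passed in either direction without WT replicate 1, 0 rose and 1 fell without WT replicate 2, and 3 rose and 1 fell without WT replicate 3.

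Of 26 genes fixed for other SET-domain enzymes and Dot1l, 6 were tested, 4 were higher and 2 lower, at a median of 0.36, beside 41.1% higher and 27% lower among all tested genes. Ash1l, an H3K36 methyltransferase gene of the Trithorax group, had 288 ± 9.42 CPM in UTX TCD and 203 ± 6.11 CPM in WT libraries (0.51 ± 0.08, edgeR adjusted p = 0.0030). Nsd3 rose by 0.57 ± 0.12 and Prdm2 by 0.40 ± 0.07 on the log2 scale (edgeR adjusted p = 0.0072 and 0.0054). Dot1l, the H3K79 methyltransferase gene, went the other way, with 1129, 891 and 946 CPM in UTX TCD replicates 1, 2 and 3, against 1363, 1386 and 1360 CPM in WT replicates 1, 2 and 3 (-0.47 ± 0.10, edgeR adjusted p = 0.0089). With any 1 WT library left out, this list had 1 lower member.

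Of 26 genes fixed as enhancer coactivators, 6 were tested, 5 were higher and none lower, at a median of 0.34, where 41.1% of all tested genes were higher. Smarca2, a chromatin-remodelling ATPase gene, had 192, 223 and 206 CPM in UTX TCD replicates 1, 2 and 3, against 136, 138 and 143 CPM in WT replicates 1, 2 and 3 (0.58 ± 0.09, edgeR adjusted p = 0.0028). Pbrm1 and Arid2, subunits of the same remodelling family, were higher by 0.38 ± 0.07 and 0.31 ± 0.07 on the log2 scale, and Ncoa3, a nuclear receptor coactivator, by 0.50 ± 0.12 (edgeR adjusted p = 0.0054, 0.011 and 0.012). Without WT replicate 1 there were 3 higher members and without WT replicate 2 there were 2. Without UTX TCD replicate 1 there was 1 lower member.

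**Figure D5:**
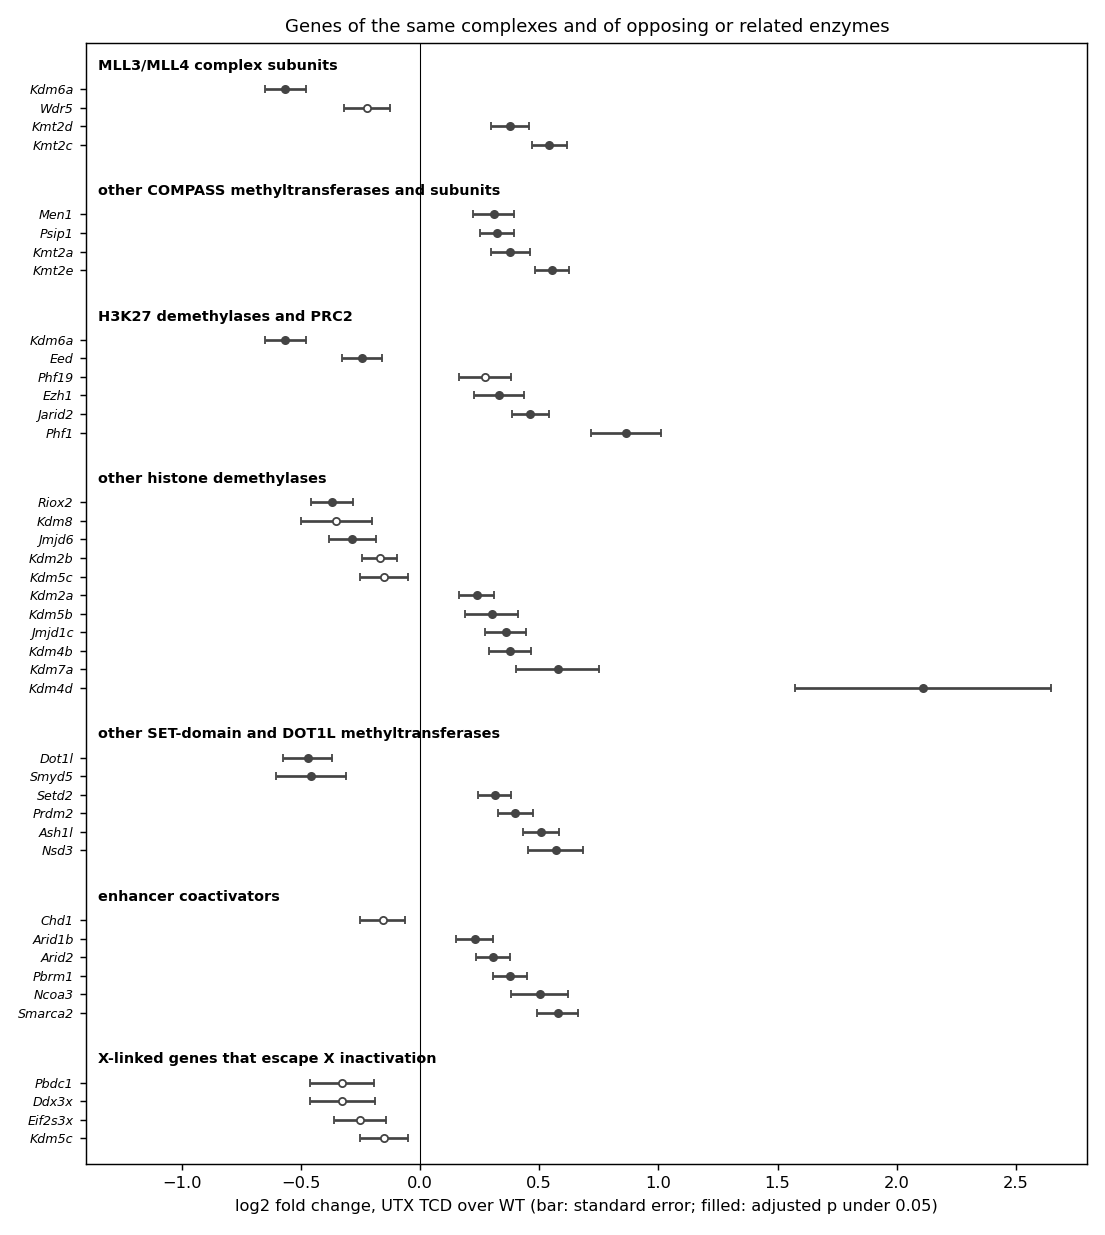
Log2 fold change (horizontal axis, UTX TCD over WT, bar for the standard error) of each tested gene in the lists of complex partners, opposing enzymes and related enzymes, with filled points at an edgeR adjusted p under 0.05. Kdm6a at -0.56 and Dot1l at -0.47 are the lowest points shown. The Kmt2 genes lie among other higher genes such as Smarca2 at 0.58 and Nsd3 at 0.57.

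Markers were checked beside these results. Of 12 T cell markers 2 were tested. Lck, the kinase of the T cell receptor, had 1375 ± 36.6 CPM in UTX TCD and 1507 ± 24.5 CPM in WT libraries and did not pass (-0.13 ± 0.07, edgeR adjusted p = 0.12). Cd2 rose by 1.10 ± 0.23 (edgeR adjusted p = 0.0078). Thy1, a T cell surface gene outside that list and named after its values were seen, went the other way. It had 56.8 ± 18.3 CPM in UTX TCD and 809 ± 85.1 CPM in WT libraries (-3.83 ± 0.23, edgeR adjusted p = 0.00019). Cd8b1, a chain of the CD8 coreceptor, was at 31.5, 56.2 and 40.8 CPM in UTX TCD replicates 1, 2 and 3 and at 11.6, 14.5 and 12.8 CPM in WT replicates 1, 2 and 3, so that it moved with the genotype. Its part in the results was not tested. The markers Cd3e, Cd4, Cd8a and those fixed for B cells, myeloid cells, dendritic cells and erythroid cells were not analysed here. Of the 5 NK cell markers, Eomes alone was tested, at 22.9 to 49.1 CPM in UTX TCD and 21.9 to 57.6 CPM in WT libraries (0.13 ± 0.41, edgeR adjusted p = 0.76).

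The genes of the table with a pattern most like that of each gene were listed by Pearson's correlation of log2 CPM over the 6 libraries, among 3384 genes, as a description. In a table chosen on the genotype, high values are common: 273 genes were above 0.9 for Kdm6a, 924 for Kmt2a, 746 for Kmt2c, 393 for Kmt2d and 863 for Kmt2e. Kdm6a was most like Ckb, which encodes a creatine kinase, Tmem173, which encodes the DNA-sensing adaptor STING, and the mitochondrial ribosome gene Mrpl45 (r = 0.999, 0.997 and 0.996). Tmem173 had 226 CPM in UTX TCD and 511 CPM in WT libraries on average. Kmt2c was most like Vamp2, Setd2 and Rev1 (0.997 each), and Kmt2e was most like Ugcg, Vamp2 and Socs2 (above 0.997), so that Kmt2c and Kmt2e shared Vamp2. Setd2 encodes the H3K36 methyltransferase SETD2 and had 673 CPM in UTX TCD and 541 CPM in WT libraries. Kmt2a was most like Trp53bp2, Crybg1 and Ezr, and Kmt2d was most like Arhgap27, Map4 and Ep400, the last a remodelling ATPase gene.

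Tested neighbours of the Kmt2 genes moved in both directions, as did all tested genes, of which 41.1% were higher and 27% lower. No other tested gene lay within 1 Mb of Kdm6a. Within 1 Mb of Kmt2a, 2 of 10 tested genes were higher and 7 lower, so that most went the other way from Kmt2a. The lower genes included Thy1, described above with the markers, at -3.83 ± 0.23. Whether these neighbours differ from all tested genes was not tested. Within 1 Mb there were 3 higher and 1 lower of 5 tested genes for Kmt2c, 6 and 4 of 12 for Kmt2d, and 3 and 2 of 9 for Kmt2e. Among the tested genes, which are part of the genome only, the nearest to Kmt2a was Arcn1, 35.5 kb away, which did not pass (-0.11 ± 0.08, edgeR adjusted p = 0.22). The nearest to Kmt2c was Galnt11, 5.9 kb away, which rose by 0.39 ± 0.13 (edgeR adjusted p = 0.028). The nearest to Kmt2d was Ddn, 22.2 kb away, which fell by 2.16 on the log2 scale (edgeR adjusted p = 0.0030). The nearest to Kmt2e was AI506816, 194.1 kb away, which did not pass (-0.18 ± 0.10, edgeR adjusted p = 0.13).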

How the data were processed

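The authors deposited unnormalized whole-number read counts in 1 table of 4162 genes and 6 libraries. Per the submitters' processing notes, the tools were FastQC, HISAT2 and HTSeq and the build was mm10. The sources used here give no versions, annotation or strand setting. Columns were tied to samples through genotype and number in the titles. Every row named a gene. The members and gene lists were chosen with earlier results of these data known.

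Counts were tested with edgeR 4.0.16 in R 4.3.3 (quasi-likelihood F test, genotype as the only term, TMM scaling, minimum count 10 and minimum total count 15, which left out 44 genes) and Benjamini-Hochberg adjustment over 4118 genes. Standard errors are |log2 fold change| / √F. Counting error of a member in 1 library was 0.911% to 2.53%. Adjustment over a table selected on the genotype counts too few tests. Ratios of counts within a library were compared with exact two-sided permutation tests. Alternatives were RLE, upper-quartile and gap-centred scaling (UTX TCD factors moved so that the emptiest fold change lies at 0), no filter, DESeq2 1.42.0, limma-voom (limma 3.58.1), a replicate block, adjustment over all 21951 annotated coding genes, and each library left out. The tests were first run on simulated data. Gene models are GENCODE M21. Members were always named, as were, in each list, up to 4 genes of smallest p, and the 3 genes most like each member. Genes nearest to a member were named by position, a rule added after the data were seen.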

Additional observations from a re-analysis of the deposited data

How the results depend on the processing

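The fold changes of Kdm6a, Kmt2c and Kmt2e kept their direction and their call under all 14 alternatives, at -0.64 to -0.48, 0.47 to 0.62 and 0.48 to 0.63. Kmt2a (0.30 to 0.46) and Kmt2d (0.30 to 0.46) kept their direction under all 14 and their call under 13. The exception is WT replicate 2 left out, at 0.35 for Kmt2a (edgeR adjusted p = 0.057) and 0.35 for Kmt2d (0.054), a fit with fewer samples, as is every fit with 1 library left out. Other settings passed narrowly. Adjusted over all annotated coding genes, the edgeR adjusted p was 0.049 for Kmt2a and 0.043 for Kmt2d. Without WT replicate 1 it was 0.045 for Kmt2a and 0.046 for Kmt2d. With any 1 library left out, Kmt2a was 0.31 to 0.42 and Kmt2d 0.34 to 0.41. The log2 difference of Kmt2a against Kmt2d, near 0, was -0.068 to 0.058 with 1 library left out, with the sign turned without UTX TCD replicate 1 (0.058) or 3 (0.0096) and without WT replicate 1 (0.011). The other 10 ratios kept their direction with any 1 library left out. The median of all genes was -0.15 with TMM, -0.11 with RLE, -0.07 after upper-quartile scaling and -0.23 after gap-centring.

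Counts over all genes moved more. The 1692 higher and 1111 lower genes became 1742 and 725 after upper-quartile scaling, 1547 and 1832 after gap-centred scaling, and 630 and 296 when adjusted over all 21951 annotated coding genes. With 1 library left out they were 730 to 1824 and 351 to 1458, lowest without WT replicate 2. Without WT replicate 1 they were 812 and 402, and without WT replicate 3 the lower genes were 544. The cause was not tested.

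The lists, all small, moved as follows. With RLE or upper-quartile scaling, lower members of the H3K27 and PRC2 list and of the other demethylases were 1 each. With gap-centred scaling, lower members were 2 for MLL3 and MLL4 subunits, 4 for other demethylases, 3 for genes that escape X inactivation and 1 for T cell markers. When adjusted over all annotated coding genes, higher members were 2 for other COMPASS genes, 0 for other demethylases and 2 for coactivators, and lower members were 1 for H3K27 and PRC2, 0 for other demethylases and 1 for other SET-domain enzymes. With 1 library left out, higher members were 1 to 2 for MLL3 and MLL4 subunits, 2 to 4 for other COMPASS genes, 0 to 6 for other demethylases and 2 to 5 for coactivators. Lower members were 1 to 2 for MLL3 and MLL4 subunits, H3K27 and PRC2, and other SET-domain enzymes, 0 to 3 for other demethylases and escaping genes, and 0 to 1 for coactivators and T cell markers.

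With the replicate block, 1607 genes were higher and 1026 lower and the 5 genes kept their calls (Kdm6a -0.57, Kmt2a 0.38, Kmt2c 0.54, Kmt2d 0.38, Kmt2e 0.55), while H3K27 and PRC2 had 1 lower member and escaping genes 1. The replicate number was not treated as a pairing, since the labels name none. Deviations of libraries with the same number correlated at 0.28, -0.28 and 0.18 for replicates 1, 2 and 3. UTX TCD replicates 1 and 3 correlated best with the WT library of their own number, and UTX TCD replicate 2 did not. With 3 libraries for each genotype, these values cannot decide whether there was a pairing.

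Levels per kb with the longest coding transcript, an alternative added after the data were seen, are given in the report. The counting error of each of the 5 genes was below the spread between UTX TCD libraries. In WT libraries the spread was below the counting error for Kdm6a (1.05% against 1.94%), Kmt2c (0.842% against 1.64%) and Kmt2e (1.09% against 1.43%), so that depth limits how well their WT spread is known.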
